A study of Mus musculus with 9 samples.

Results

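Voltage-gated sodium channels and hyperpolarisation-activated cyclic nucleotide-gated (HCN) channels were followed here through 8 genes, selected by symbol from the 18275 genes of the hippocampal expression table. They comprised 4 sodium channel alpha subunits (Scn1a, Scn2a, Scn3a and Scn8a), 3 sodium channel beta subunits (Scn2b, Scn3b and Scn4b) and the HCN channel gene Hcn2. All 8 had a mean value above the minimum of 10 that a gene needed to be tested. A sodium channel alpha subunit forms the pore that opens on depolarisation and carries the rising phase of the action potential, and the beta subunits attach to it and adjust its gating and its place in the membrane. HCN channels work in the opposite voltage range: they open on hyperpolarisation, bind cyclic AMP directly, and pass a mixed sodium and potassium current that sets the resting potential and the integration of dendritic inputs in hippocampal pyramidal cells. Scn2a and Scn8a are the main alpha subunits of excitatory axons, Scn1a is best known from inhibitory interneurons, and Scn3a is most abundant before birth.

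Stranded mRNA libraries had been made from the hippocampus of 4 Nestin;BrafKE/+ mice, which carry 1 Braf allele with the K499E substitution and a Nestin-Cre transgene, and of 5 Braf+/+ littermates. All were males of the C57BL/6N strain, 11 to 15 weeks old. Nestin-Cre acts in neural stem cells, so that neurons and glia descended from them both carry the allele, and the labels give the controls by their Braf genotype alone. Each library is labelled as a replicate of its own, and the p-values measure the spread between these libraries in the deposited values. Those values may already carry the authors' adjustment for batches, so this spread need not be the full variation between animals. In bulk tissue, fewer cells of a type and less RNA per cell cannot be told apart.

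Values are normalised counts as the authors deposited them, a signal that summed to between 19550000 and 20090000 per library. Library names fell into 3 series (A, with 4 libraries; B, with 3; C, with 2), and each series held both genotypes. Fold changes are on the log2(value + 1) scale, from a limma fit with genotype and series as terms. The threshold is a Benjamini-Hochberg adjusted p of 0.05 over all genes tested. Of the 16196 genes tested 2.88% passed, 1.52% higher and 1.36% lower in Nestin;BrafKE/+ mice. In 15.7% of the genes tested no library of one group overlapped the other, and 18.5% had an unadjusted p under 0.05. Braf, the targeted gene, is changed by 1 codon and not deleted, so its level does not check the labels: it was 2264 ± 144 (SD, n = 4) against 2786 ± 153 (n = 5), or -0.30 on the log2 scale (SE 0.065, limma adjusted p = 0.0378). Libraries Braf+/+ replicate 2 and replicate 4 stood apart in transcripts of the choroid plexus, the secretory epithelium of the ventricle next to the hippocampus. Its carrier protein gene Ttr reached 381600 and 106700 there, against 927.9 to 22370 in the other 7 libraries.

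The alpha subunits are close paralogues, and this bears on how exactly their reads can be divided. In GRCm39 Scn3a (chr2:65287462-65397971, minus strand), Scn2a (chr2:65451102-65597795, plus strand) and Scn1a (chr2:66101122-66271572, minus strand) lie in 1 cluster, and Scn8a lies apart (chr15:100767739-100943819, plus strand). Coding sequences of these 3 were between 81.9% and 84.3% identical in pairs, and Scn8a was between 74.8% and 75.0% identical to each. Over whole transcripts, 31-base words were compared among the 8 genes, Scn9a, Hcn3 and Hcn4, but not Scn7a. Of these words, 9.71% in Scn1a, 12.3% in Scn2a and 12.03% in Scn3a also occurred in another gene compared. The share was 0.246% for Scn8a, 0.142% for Hcn2 and 0 for the 3 beta subunits. The division of reads among Scn1a, Scn2a and Scn3a is therefore less certain than the value of Scn8a or Hcn2. Each of the 8 genes also overlaps 1 or 2 predicted genes on the opposite strand, and the strand setting of the counting is not given in the sources used here.

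Hcn2 rose in the Nestin;BrafKE/+ hippocampus and was the 1 gene of the 8 that passed the threshold (12.5%, against 2.88% of all genes). Its normalised count was 2855, 2764, 2936 and 2791 in the Nestin;BrafKE/+ libraries, replicates 1 to 4, and 2085, 2224, 2330, 2198 and 2254 in the Braf+/+ libraries, replicates 1 to 5. All 4 mutant libraries lay above all 5 control libraries. Group means were 2836 ± 76.7 (SD, n = 4) and 2218 ± 89.4 (n = 5), 27.9% higher on the fitted scale, with a log2 fold change of 0.35 (SE 0.053, 95% interval 0.24 to 0.47, limma adjusted p = 0.00789). Within series A, B and C the differences of the means were 0.37, 0.37 and 0.31 on the log2 scale, so that its rise was of similar size in each. Series C had 1 library of each genotype and series B had 1 control. The values may also already be adjusted for batches, so this likeness of the series is no separate check. The estimate held its size when libraries were left out, but not always its call. Without Braf+/+ replicate 4, which leaves series B with no control, the log2 fold change was 0.34 (adjusted p = 0.0531), and without Nestin;BrafKE/+ replicate 1, which leaves series A with no mutant, it was 0.35 (adjusted p = 0.0742). Without Braf+/+ replicate 2, which had the most choroid plexus transcripts, it was 0.36 (adjusted p = 0.0167), and without both controls high in those transcripts 0.35 (adjusted p = 0.0937).

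**Figure D1:**
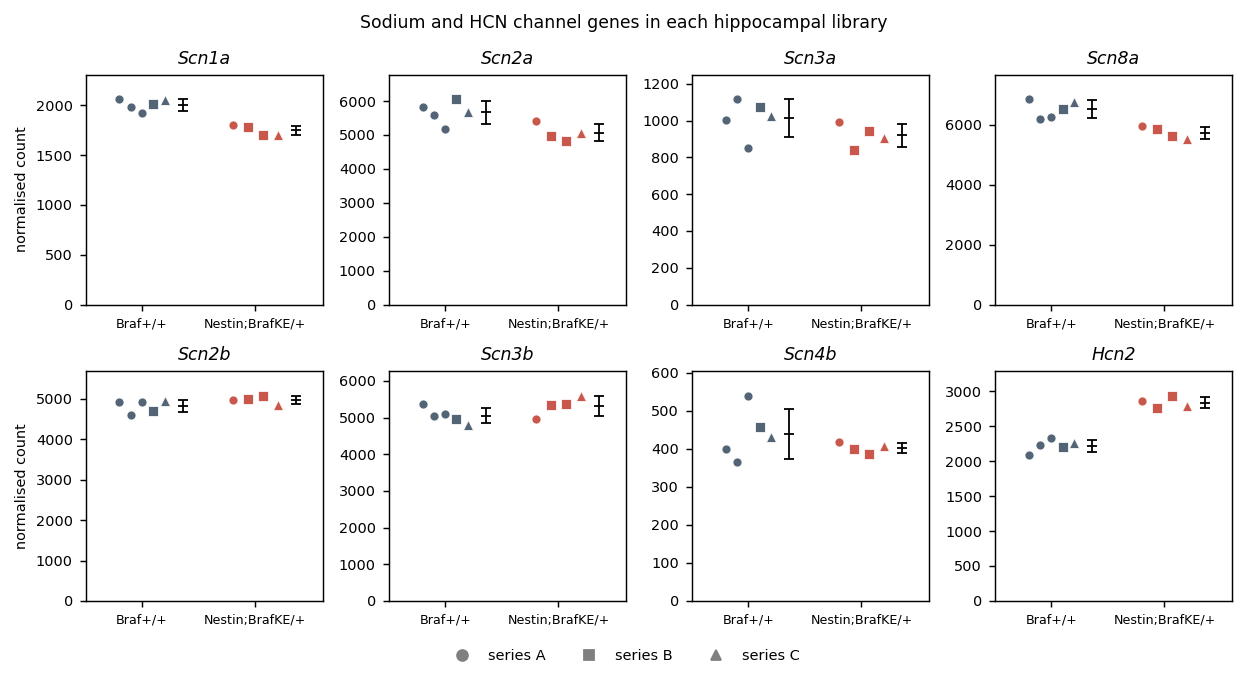
Normalised count (vertical axes, from 0) of each of the 8 genes in every library, by genotype; points are libraries, their shape the series of library names, and bars the mean ± SD of 5 Braf+/+ and 4 Nestin;BrafKE/+ libraries. The 4 Nestin;BrafKE/+ points for Hcn2, 2764 to 2936, sit above the 5 control points, 2085 to 2330, while those for Scn1a and Scn8a sit below theirs.

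Hcn2 lies on chromosome 10 of GRCm39 (chr10:79552120-79571948, plus strand, 8 exons). The 250 bases before its start, chr10:79551870-79552119, plus strand, are shown as the promoter of the gene that passed the threshold, and overlap no annotated exon of it.
Hcn2: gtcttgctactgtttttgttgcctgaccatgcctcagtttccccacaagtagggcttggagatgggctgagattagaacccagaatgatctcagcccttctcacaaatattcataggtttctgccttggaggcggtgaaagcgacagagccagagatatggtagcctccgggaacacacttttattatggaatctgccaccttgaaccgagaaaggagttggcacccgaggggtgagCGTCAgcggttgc
The capitals mark its single match to 5 motifs searched on both strands, the cyclic AMP response element half-site TGACG, here read on the opposite strand. Of 16133 promoters of tested genes 21.9% held this half-site. The window held no GC box (GGGCGG, in 45.8% of promoters), no E-box (CACGTG, 7.26%), no EGR site (GCGNGGGCG, which can overlap a GC box, 5.9%) and no ETS site (CCGGAAG, 8.75%). Its GC content was 51.2%, within the middle range of promoters (quartiles 49.6% and 63.2%). These are matches of letters only.

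The HCN genes Hcn3 and Hcn4 were measured beside it. Hcn3 had a normalised count of 227 ± 9.83 (SD, n = 4) against 190 ± 9.03 (n = 5), and its groups did not overlap, but it did not pass (log2 fold change 0.26, adjusted p = 0.201). Hcn4, the form known from the pacemaker of the heart, was close to the low end of the tested range at 39.7 ± 9.26 against 32.2 ± 7.004 (0.29, adjusted p = 0.606).

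Pex5l, whose product TRIP8b is an auxiliary subunit that binds HCN channels in the brain and controls their surface level, rose as well. Its normalised count was 5094, 5207, 5081 and 5171 in the Nestin;BrafKE/+ libraries and 4277, 4203, 4458, 4296 and 4278 in the Braf+/+ libraries. No library overlapped the other group, and it rose by 0.26 on the log2 scale (SE 0.044, limma adjusted p = 0.0146), with 0.24, 0.26 and 0.27 in the respective series. Kctd3, listed here among the channel regulators, rose from 1542 ± 73.7 (SD, n = 5) to 1910 ± 88.1 (n = 4). Its change was 0.31 on the log2 scale (SE 0.061, limma adjusted p = 0.0262), with 0.27, 0.47 and 0.16 in series A, B and C. Whether its product binds HCN2 was not measured. With 1 library left out at a time, Pex5l passed in 7 of 9 fits (adjusted p 0.0191 to 0.0838) and Kctd3 in 4 of 9 (0.0274 to 0.144), and with name prefixes in place of the series neither passed (0.0519 and 0.0757). Kctd3 also missed the threshold with array quality weights (0.0515). Neither Pex5l nor Kctd3 passed without both controls high in choroid plexus transcripts (0.24, adjusted p = 0.122, and 0.21, adjusted p = 0.219).

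None of the 4 alpha subunits passed the threshold, and the estimates of all 4 were below 0. Scn8a, the alpha subunit of nodes of Ranvier and of the distal initial segment, had 5959, 5856, 5609 and 5530 normalised counts in the Nestin;BrafKE/+ libraries and 6854, 6189, 6259, 6528 and 6762 in the Braf+/+ libraries. The groups did not overlap: the highest mutant library lay below the lowest control. Means were 5739 ± 203 (SD, n = 4) and 6518 ± 295 (n = 5), with a log2 fold change of -0.18 (SE 0.053, 95% interval -0.30 to -0.067, adjusted p = 0.0959). Within series A, B and C the differences were -0.11, -0.19 and -0.29.

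Scn1a, the alpha subunit whose loss of function underlies Dravet syndrome, had 1797, 1779, 1706 and 1706 normalised counts in the Nestin;BrafKE/+ libraries and 2061, 1980, 1917, 2017 and 2056 in the Braf+/+ libraries. These groups did not overlap either. Means were 1747 ± 47.9 (SD, n = 4) and 2006 ± 59.3 (n = 5), and the log2 fold change was -0.20 (SE 0.052, 95% interval -0.31 to -0.086, adjusted p = 0.0690), with -0.14, -0.21 and -0.27 within the series. Both genes were past the threshold in the fit with no series term (Scn1a adjusted p = 0.00515, Scn8a adjusted p = 0.0130) and with the replicate number as a block in place of the series (0.0304 and 0.0408). With the series term and 1 library left out at a time, neither passed in any of the 9 fits.

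Scn2a, the alpha subunit of excitatory axons and of the proximal initial segment, had 5425, 4964, 4830 and 5058 normalised counts in the Nestin;BrafKE/+ libraries and 5834, 5585, 5170, 6054 and 5666 in the Braf+/+ libraries. Nestin;BrafKE/+ replicate 1 lay above the lowest control, so the groups overlapped. The log2 fold change was -0.16 (SE 0.061, 95% interval -0.29 to -0.024, adjusted p = 0.196), and the series differed, with values of -0.03, -0.31 and -0.16 for A, B and C respectively. The estimate moved to -0.081 without Braf+/+ replicate 4, and without Nestin;BrafKE/+ replicate 1 it was -0.25. Scn3a, the alpha subunit of the immature brain, had 991, 840, 943 and 904 against 1006, 1116, 848, 1074 and 1026 normalised counts. Its groups overlapped (log2 fold change -0.14, SE 0.093, 95% interval -0.34 to 0.069, adjusted p = 0.474). It was -0.066 without Braf+/+ replicate 4, -0.23 without Nestin;BrafKE/+ replicate 1 and -0.020 without both controls high in choroid plexus transcripts. Of the 8 genes, 4 had an unadjusted p under 0.05 (Hcn2, Scn1a, Scn8a and Scn2a), against 18.5% of all genes, and 3 did not overlap (Hcn2, Scn1a and Scn8a), against 15.7% of all genes. In the 8, the median log2 fold change was -0.13, and over all genes 0.00033. The 8 were chosen with earlier results of these data known, so these shares are a description only.

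**Figure D2:**
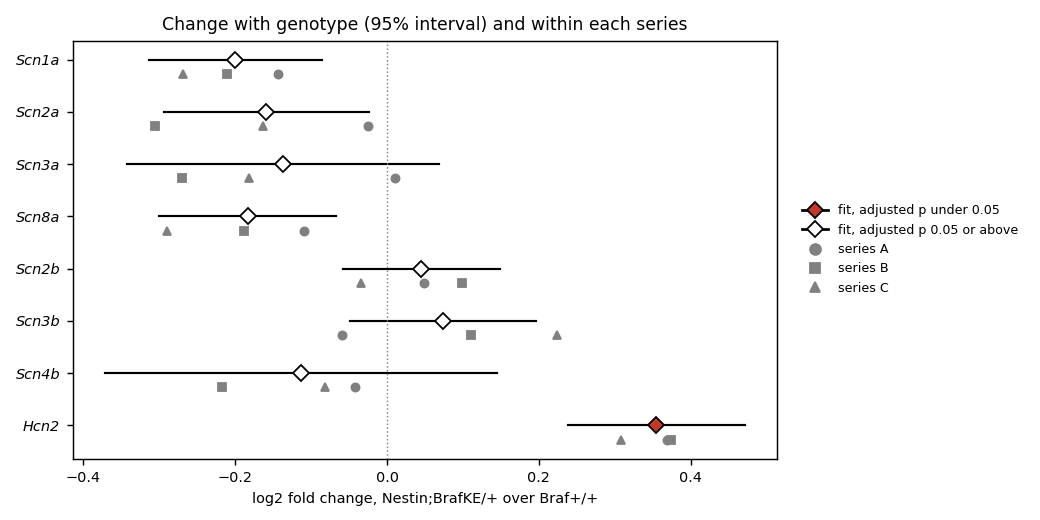
Log2 fold change of Nestin;BrafKE/+ over Braf+/+ (horizontal axis) for the 8 genes; diamonds with bars are limma estimates with 95% intervals, filled where the adjusted p was under 0.05, and grey shapes are differences of means within each series. Hcn2 stands alone at 0.35 with its 3 series between 0.31 and 0.37, and the series of Scn1a, Scn2a, Scn8a and Scn4b all lie below 0.

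The make-up of the alpha subunit pool differed little between the genotypes. Per kb of exon, Scn2a formed 40.0% ± 0.81 of the sum of the 4 in Nestin;BrafKE/+ and 39.7% ± 0.90 in Braf+/+ libraries, and Scn8a 37.4% ± 0.72 and 37.7% ± 1.097 (SD, n = 4 and n = 5). Scn1a formed 15.5% ± 0.29 and 15.8% ± 0.30, and Scn3a 7.06% ± 0.42 and 6.90% ± 0.58. For each gene the ranges of the 2 genotypes overlapped. The sum itself was 972 ± 35.4 against 1097 ± 47.9 normalised counts per kb, and its ranges, 944 to 1023 and 1022 to 1135, met at their ends.

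None of the beta subunits passed. Scn2b, which is joined to the alpha subunit by a disulfide bond, had 4980, 4989, 5082 and 4839 normalised counts in the Nestin;BrafKE/+ and 4916, 4607, 4921, 4700 and 4953 in the Braf+/+ libraries. The groups overlapped, and the log2 fold change of 0.05 (SE 0.047, 95% interval -0.058 to 0.148, adjusted p = 0.653) was the smallest in size of the 8. Scn3b, which binds the alpha subunit without such a bond, had 4955, 5352, 5369 and 5598 against 5365, 5045, 5085, 4963 and 4794 (0.07, SE 0.056, 95% interval -0.049 to 0.196, adjusted p = 0.520). Here series A lay at -0.06 and series C at 0.22, on opposite sides of 0. Without Nestin;BrafKE/+ replicate 4 the estimate for Scn3b was 0.021, and without replicate 1 it was 0.16, while that for Scn2b was 0.016 without Braf+/+ replicate 4 and 0.073 without Nestin;BrafKE/+ replicate 4. Scn4b, the subunit tied to resurgent current, was the most variable of the 8 among controls. It had 417, 400, 385 and 407 normalised counts in mutant libraries and 399, 366, 540, 457 and 430 in controls, and its coefficient of variation was 3.26% and 15.04% (log2 fold change -0.11, SE 0.117, 95% interval -0.37 to 0.145, adjusted p = 0.651). That estimate was -0.056 without Braf+/+ replicate 3, -0.057 without Braf+/+ replicate 4 and -0.22 with 4 name prefixes in place of the 3 series.

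Genes can be set in order only per length of transcript. Per kb of exon and over all 9 libraries, the mean normalised count was 1050 for Scn2b, 722 for Scn3b, 702 for Hcn2, 415 for Scn2a, 391 for Scn8a, 163 for Scn1a, 83.1 for Scn4b and 72.6 for Scn3a. Among the other channel genes listed, Hcn3 stood at 41.7, and Scn7a, Hcn4 and Scn9a lay between 4.17 and 9.63. The muscle subunit gene Scn4a and the sensory neuron genes Scn10a and Scn11a were not among the 18275 genes with values and so were not tested. The order was the same in every library for most neighbours. The place of Hcn2 against Scn3b depended on the length used. With the union of exons, Scn3b was above Hcn2 in all 5 control libraries (704.9 ± 29.1 against 625 ± 25.2 per kb, SD, n = 5) and below it in all 4 mutant libraries (742 ± 37.3 against 799 ± 21.6, n = 4). With the longest annotated transcript it was above Hcn2 in all 9 (857.6 against 625 in control and 903 against 799 in mutant mice). Scn2a was above Scn8a in 9 of 9 libraries with either length, although their ranges overlapped. Scn4b was above Scn3a in 8 of 9 libraries with the union of exons and in 1 of 9 with the longest transcript, and Scn2a, below Hcn2 in every library with the union of exons, was above it in 2 of 9 with the longest transcript.

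**Figure D3:**
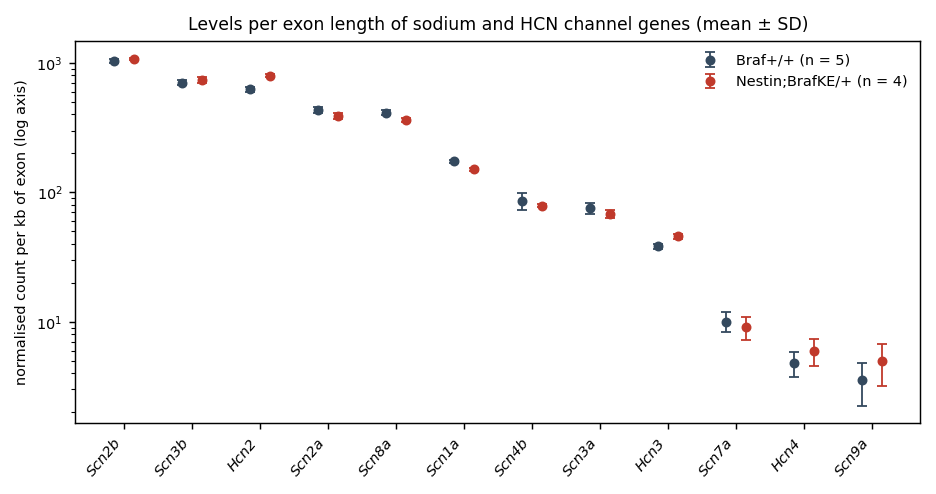
Normalised count per kb of exon (log axis) of 12 sodium and HCN channel genes, as mean ± SD of 5 Braf+/+ and 4 Nestin;BrafKE/+ libraries, ordered by the mean over all 9. Scn2b leads the order at 1050, and with this length Hcn2 lies above Scn3b in the mutant and below it in the control mice, whereas with the longest transcript it lies below in both.

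A wider list of 46 other genes of channel complexes and sodium transport was read in the same fit, 42 of them tested. Of these 4 passed (9.52%, against 2.88% of all genes), 3 higher (1.52% of all genes) and 1 lower (1.36%). The list was chosen with earlier results of these data known, so these shares are a description only. The median log2 fold change of the 42 was 0.0030. Among 12 genes of the axon initial segment and node, where sodium channels cluster, 1 passed: Kcnq3, a subunit of the M-type potassium channel, fell from 4308 ± 215 (SD, n = 5) to 3461 ± 184 (n = 4) normalised counts (log2 fold change -0.32, SE 0.060, adjusted p = 0.0214). It passed in 4 of 9 fits with 1 library left out (adjusted p 0.0210 to 0.133, the highest without Braf+/+ replicate 4). Ank3, the anchor of sodium channels at the initial segment, was at -0.09 (adjusted p = 0.497). None of the 4 intracellular fibroblast growth factors, which bind the tails of alpha subunits, and none of the 4 sodium leak channel genes passed. In the latter group Unc80, a large subunit of the leak complex, stood at -0.27 on the log2 scale (adjusted p = 0.0690).

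Of 9 listed genes of the sodium pump, which restores the gradient that these channels spend, and of sodium exchangers, 1 passed. Atp1b2, a beta subunit of the pump found in glia, rose from 7396 ± 248 (SD, n = 5) to 8921 ± 372 (n = 4) normalised counts (0.27 on the log2 scale, limma adjusted p = 0.0208), and its groups did not overlap. It passed in 4 of 9 fits with 1 library left out (adjusted p 0.0211 to 0.119) and not with name prefixes (0.0579). Among small regulators of the pump, Fxyd7 was at -0.33 (adjusted p = 0.0761) and Fxyd6 at 0.28 (adjusted p = 0.219). Among 9 regulators of the channels, Pex5l and Kctd3 were the 2 that passed, and the ubiquitin ligase Nedd4l, which removes sodium channels from the membrane, was at -0.19 (adjusted p = 0.129). The highest estimate that did not pass was that of Scn9a (0.49, adjusted p = 0.493). With both controls high in choroid plexus transcripts left out, none of the 42 passed.

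**Figure D4:**
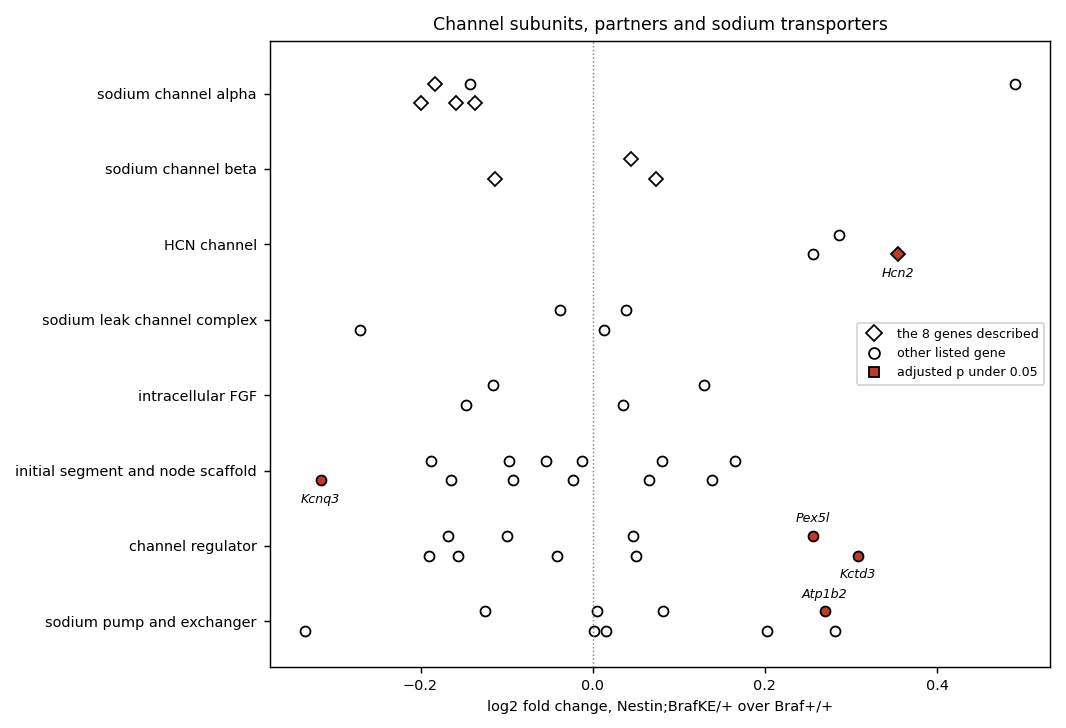
Log2 fold change of Nestin;BrafKE/+ over Braf+/+ (horizontal axis) of 50 listed genes that were tested, by group; diamonds are the 8 genes described, circles the other listed genes, and filled symbols have an adjusted p under 0.05. The HCN genes shown lie to the right of 0 and the 4 alpha subunits of the 8 to the left.

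Over the 9 libraries, the genes whose log2 values followed Hcn2 most closely, of 11881 genes with a mean of at least 100, were Pcsk6 (Pearson r 0.999), Hepacam (0.996), Rtl8b (0.995), Sorcs2 (0.99) and Hapln2 (0.99). These values share libraries and the difference between genotypes, and are a description. Genes picked for following Hcn2 in these same libraries share its difference between genotypes, so their rise is no separate result. Their log2 fold changes ran from 0.27 for Rtl8b to 1.01 for Hapln2.

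Markers of several cell types moved with genotype beside these genes. Of all 16196 genes tested, 2.88% passed and 8113 had estimates above 0. All 8 oligodendrocyte markers had estimates above 0 and 4 passed (Mog, Mobp, Mag and Cldn11), and their summed normalised count was 122870 to 132390 in Nestin;BrafKE/+ against 89596 to 108460 in Braf+/+ libraries. Of 8 astrocyte markers 6 were above 0 and 3 passed (Gfap, S100b and Aldoc; sums 110920 to 124780 against 104160 to 117890), and of 6 oligodendrocyte precursor markers 5 were above 0 and Cspg4 passed. All 6 markers of CA1 pyramidal cells were above 0 and 2 passed (Wfs1 and Fibcd1; sums 13528 to 14049 against 10978 to 11400). None of 8 pan-neuronal markers passed (5 above 0, sums 126630 to 129630 against 129740 to 136220), but Snap25 and Syt1 were lower with no overlap of the groups. None of 7 markers of fast-spiking interneurons, which depend on Scn1a, passed either (4 above 0, sums 5946.4 to 6420.4 against 6289.5 to 6824.6). Among these, Kcnc1 and Erbb4 were lower with no overlap. Over all genes, 15.7% did not overlap. Single markers passed among inhibitory neurons (Npy, higher), excitatory neurons (Neurod2, lower), the striatum (Ppp1r1b, lower) and the dentate gyrus (Calb1, higher, and Dsp, lower), and none of the microglial, endothelial, CA3, thalamic or choroid plexus lists. Their part in the values of the channel genes was not tested.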

How the data were processed

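Hippocampal libraries (TruSeq stranded mRNA) were processed by the authors with nf-core/rnaseq 3.2: reads were trimmed with TrimGalore, aligned with STAR to GRCm39 (Gencode vM 28) and quantified with Salmon, and DESeq2 was used after correction for batches whose identity is not stated. The deposited values are a signal, 1 normalised count per gene and library. Within a library 100% of values were whole multiples of a step between 0.9934 and 1.004, but mt-Co1 had the same whole number in all 9 libraries, so these are not sequenced reads: depth is unknown and no count model was used. Errors come from the variation among libraries alone, in deposited values that may already carry the authors' correction for batches. Columns were matched to samples by library name, and groups came from the labels.

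Genes with a mean of at least 10 were tested on log2(value + 1) with limma 3.58.1 in R 4.3.3 (lmFit, eBayes with trend, two-sided), with genotype and series of library names as terms, after the script was tested on simulated data. The series are read from library names and are not stated to be the authors' batches. Genes named were the 8 members, listed related genes that passed, the 3 highest and 3 lowest that did not, listed sodium and HCN subunits, markers that passed, Braf, and the 5 genes most correlated with Hcn2. Ank3 was named after its value was seen. Some related genes and sequences are not reported here. The members and lists were chosen with earlier results of these data known. Lengths, positions and the promoter came from GRCm39 with Gencode vM 39, read with Python 3.11.15. Alternatives covered pseudocount, filter, scaling, series term, replicate block, robust and weighted fits, transcript length and each library left out. Human spheroid data were not analysed here.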

Additional observations from a re-analysis of the deposited data

How the results depend on the processing

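Of 466 genes, 1 of the 8 channel genes and 4 related genes past the threshold, the fit with no series term gave 2260, 3 and 11, with Scn1a (-0.20) and Scn8a (-0.18) now past it, the 4 name prefixes 165, 1 and 1, and array quality weights 258, 1 and 3. The replicate block in place of the series term gave 1405, 3 and 9, with Scn1a (-0.19) and Scn8a (-0.17) past it. The labels state no pairing of same-numbered libraries. Their deviations correlated at -0.39, -0.0779, 0.0686 and 0.415 for numbers 1 to 4, too few values to decide whether any are paired. Leaving out 1 library at a time gave 42 (without Nestin;BrafKE/+ replicate 1) to 369 genes, 0 to 1 of the 8 and 0 to 5 related genes. None of the 8 passed without Nestin;BrafKE/+ replicate 1 or Braf+/+ replicate 4. Related genes were then 0, and were 1 without Nestin;BrafKE/+ replicate 3 and 2 without Nestin;BrafKE/+ replicate 4 or Braf+/+ replicate 5. Hcn2 lay between 0.34 and 0.37, past the threshold in 7 of 9 (adjusted p 0.0119 to 0.0742), and in 11 of 11 other settings (0.33 to 0.36). Leaving out both controls high in choroid plexus transcripts, chosen after seeing the data, removes every control of series B: 58 genes, 0 of the 8 and 0 related genes passed, Hcn2 was 0.35 (adjusted p = 0.0937), and Scn2b, not past the threshold in either fit, changed sign to -0.0043. Of the genes past the threshold 52.8% were higher, against 48.2% with no series term, 62.4% with name prefixes, 65.5% without those 2 controls and 66.7% without Nestin;BrafKE/+ replicate 1. With the longest transcript as length, levels per kb in Braf+/+ were 230.3 for Scn1a, 623.1 for Scn2a, 104.5 for Scn3a, 569.6 for Scn8a and 857.6 for Scn3b, with Scn4b at 86.3 and so below Scn3a, and alpha shares were 15.09% for Scn1a and 40.78% for Scn2a. The cause of these changes was not tested. Unknown depth limits what the low genes Hcn4 and Scn9a can show. A Dixon test, which sets the gap to the nearest library against the range, flagged 0 of 24 groups of libraries. These were the groups of the 8 channel genes and of 4 related genes in each genotype. With 4 or 5 libraries in a group it can flag only a wide gap, so it does not show that no library was unusual.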
